A study of Homo sapiens with 6 samples.

Results

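The genes described here encode the clotting factors, the vitamin K cycle that completes some of them, the inhibitors of clotting and the enzymes that dissolve a clot. They were chosen by name: every probe whose symbol in the platform annotation belonged to a list of 42 such genes was taken. All 42 genes were found, on 69 probes, out of 20046 named genes on 47323 probes. RNA of 3 samples of PBLD overexpressed HepG2 cells was compared with RNA of 3 control HepG2 samples, 1 Illumina bead array per sample. HepG2 is an established line grown from a human liver tumour, so the cells of both groups share 1 donor and 1 tumour background. PBLD encodes a protein with a phenazine biosynthesis-like domain. The labels give neither the vector that carried PBLD nor what the control cells carried. Nor do they say whether replicates came from different cultures, so a p-value here covers no more than the scatter among these samples, perhaps only a technical one. In RNA from whole cultures, fewer cells that express a gene and less RNA per cell cannot be told apart.

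Hepatocytes make and secrete most of the plasma clotting factors, and HepG2 cells keep much of that programme. Clotting starts when tissue factor binds factor VII, which activates factor X. Factor X with its cofactor, factor V, turns prothrombin into thrombin, and thrombin turns fibrinogen into fibrin. Several factors work only after the enzyme GGCX has carboxylated them with reduced vitamin K. Antithrombin, heparin cofactor II, protein C, protein S and tissue factor pathway inhibitor (TFPI) hold the cascade back, and plasmin, made from plasminogen, cuts the fibrin again.

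Values are log2 intensities as deposited by the authors, and the median of every array was 8. A background limit was set for every array, namely the 95th percentile of the values of 590 probes for olfactory, taste and vomeronasal receptors and keratin-associated proteins. It lay between 8.06 and 8.09, with 39.3 to 41.5% of probes above it. A level near 8 is therefore close to background. Precision is limited by how few arrays each group has. PBLD itself, by its brightest probe, stood at 12.62, 12.84 and 12.72 on the PBLD arrays and at 8.002, 8.07 and 8.18 on the control arrays, of which 1 passed the limit. Of its 4 probes, ILMN_2304404 was likewise above the limit on every PBLD array, and ILMN_1699684 and ILMN_1760748 were above it on no array of either group. Of 6 hepatocyte markers measured (ALB, APOA1, APOB, TTR, SERPINA1 and AHSG), 6 were above the limit on every array. Their mean log2 level ranged from 14.70 to 14.79 on the PBLD arrays and from 14.98 to 15.10 on the control arrays, and all but ALB were lower in PBLD cells. What part these liver genes' shift has in the results on the clotting genes was not tested. The 6 endothelial markers averaged 7.91 to 7.99 in PBLD cells and 7.90 to 7.95 in control cells, and 5 of them (PECAM1, CDH5, KDR, TEK and ERG) were above the limit on no array. Of other cells' markers, PTPRC, CD3E and ITGAM of leukocytes, PF4 and GP9 of platelets, and COL1A2, DCN and LUM of fibroblasts were above the limit on no array. CD14, CD68, LYZ, PDGFRB, GP1BA and PPBP were above it on every array, and among these LYZ was lower in PBLD cells.

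Clotting genes were lower in PBLD cells more often than higher. Of the 42 genes, 13 fell, 1 rose and 28 did not pass an adjusted p of 0.05 in the limma fit over all probes, with Benjamini-Hochberg adjustment and the brightest probe standing for each gene. The genes that fell were F2, F7, F10, PROS1, PROZ, VKORC1, F5, F12, KLKB1, SERPIND1, TFPI, A2M and SERPINF2, and the gene that rose was VKORC1L1. The share that fell was 31.0%, beside 4.2% of all named genes, while 5.81% of all named genes rose. A total of 34 of the 42 genes were above the background limit on at least 3 arrays. The 13 that fell make up 38.2% of these 34, beside 7.72% lower and 10.6% higher among all 10880 genes above the limit. The median log2 change was -0.066 over the 42 genes and -0.102 over the 34, against 0.009 over all genes and 0.024 over all genes above the limit. Counted by probe, 21 of the 69 probes (30.4%) fell and 1 rose, beside 2.57% lower and 3.5% higher among all probes on the array. Leaving out PBLD replicate 1 or control replicate 1 left 8 of the 42 genes lower in either case, beside 613 and 520 of all named genes. Whether more of all named genes fell or rose depended on the processing.

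By the brightest probe of each gene, the decreases were small. Among the 13 genes they ran from 1.21-fold for F5 to 1.92-fold for TFPI, with a median of 1.304-fold, and only TFPI and F10, at 1.71-fold, passed 1.5-fold. The dimmer TFPI probes fell further, ILMN_1662619 by 2.65-fold and ILMN_1701032 by 5.07-fold. In every one of the 13 the 3 PBLD arrays lay below the 3 control arrays. Without regard to the test, the PBLD arrays lay wholly below the control arrays in 17 of the 42 genes and wholly above them in 3, beside 9.82% below and 13.6% above among all named genes. Part of the scatter within a group was shared by many of these genes. Among the 13, PBLD replicate 3 was the lowest PBLD array for 8 and control replicate 3 the lowest control array for 10. The median deviation of these 2 arrays from their group means was -0.105 and -0.095 on the log2 scale. Over all probes, the same 2 arrays had the lowest 75th percentile of their groups. It was 8.51 on PBLD replicate 3, against 8.54 and 8.6 on replicates 1 and 2. On control replicate 3 it was 8.5, against 8.58 on replicates 1 and 2. Whether the shared scatter is particular to the clotting genes was not tested.

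**Figure D1:**
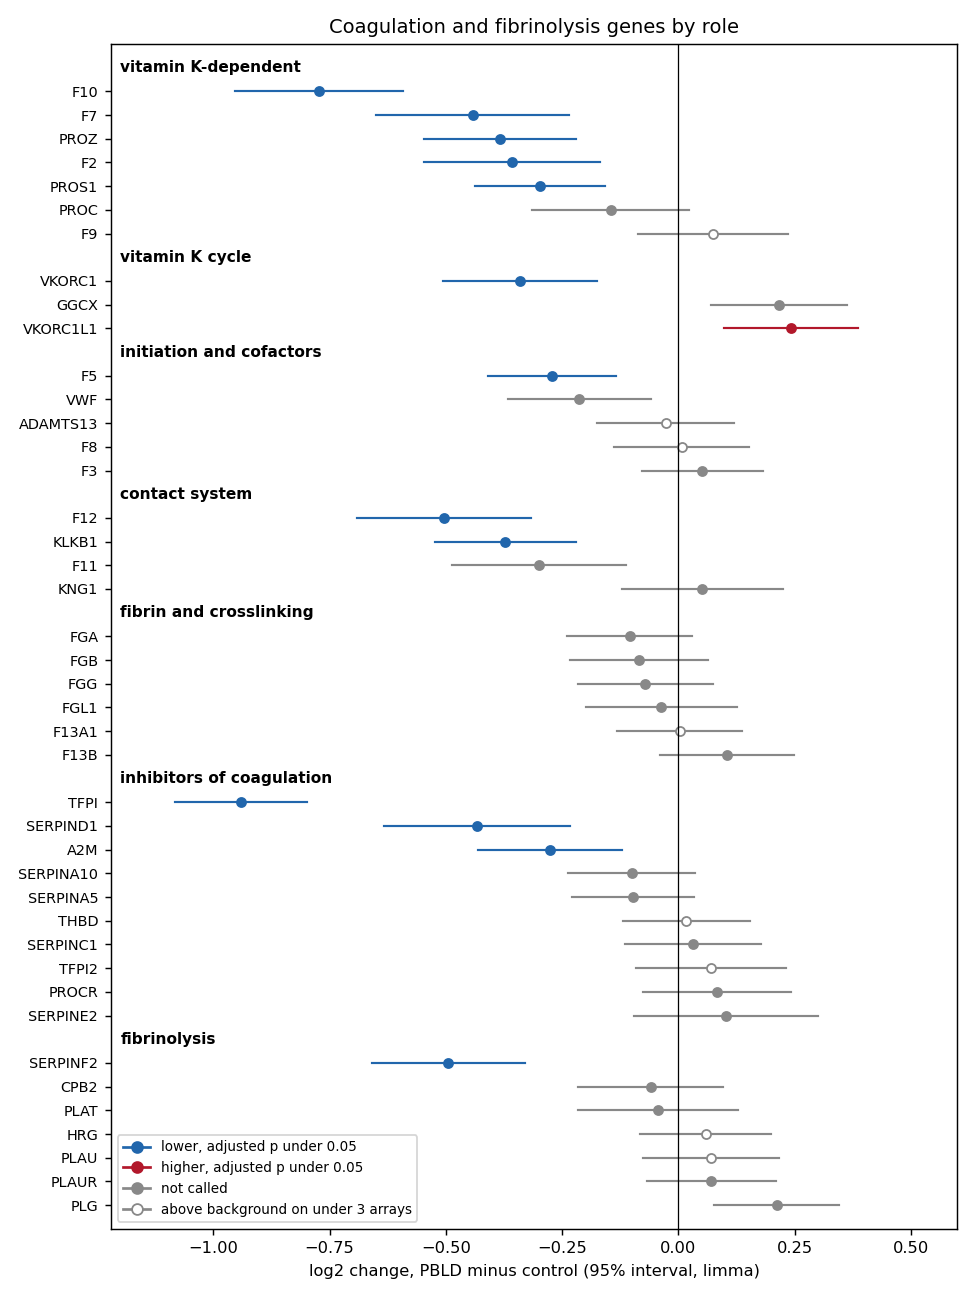
Log2 change, PBLD minus control, of each of the 42 genes with its 95% confidence interval from the limma fit (n = 3 arrays per group), grouped by role, with the zero line marking no change. TFPI lies farthest to the left at -0.94, F10 follows at -0.77, and VKORC1L1 is the gene called higher, at 0.24.

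**Figure D2:**
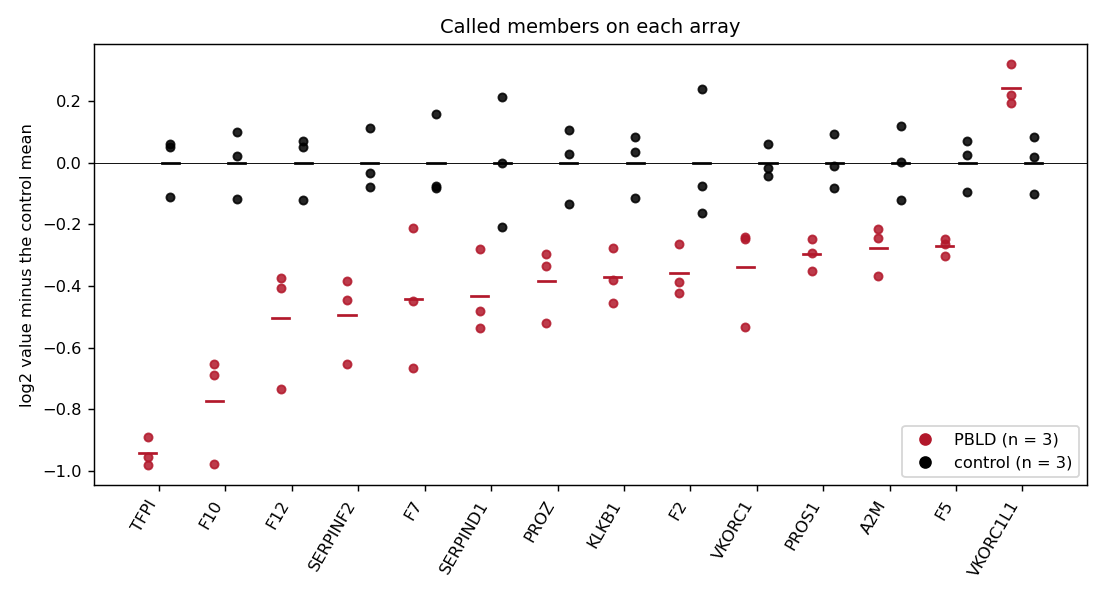
Log2 value of the 14 called genes on each array, less the gene's mean over the control arrays, with 3 PBLD and 3 control points per gene. For the 13 lower genes every PBLD point lies below every control point, and for VKORC1L1 every PBLD point lies above.

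The vitamin K-dependent factors carry the most called genes of any role, 5 of 7. F10, the factor X gene at which the tissue factor and contact routes meet, had 10.27, 10.23 and 9.95 in PBLD cells, against 10.94, 11.02 and 10.80 in control cells. The groups were well apart, with the lowest control array above the highest PBLD array. The log2 change was -0.77 (SE 0.08, limma adjusted p = 2.86e-05). F7, whose product joins tissue factor to start clotting, had 8.74, 8.97 and 8.52 in PBLD cells, against 9.34, 9.10 and 9.11 in control cells. The groups did not overlap, though PBLD replicate 2 came close to the lower control arrays. The log2 change of F7 was -0.44 (SE 0.10, limma adjusted p = 0.00998), which missed the threshold without PBLD replicate 1 (adjusted p = 0.0511) or control replicate 1 (adjusted p = 0.07). Another F7 probe, ILMN_2358265, changed by -0.35 (adjusted p = 0.0125), while ILMN_2267025 was above the limit on only 1 PBLD and 1 control array. PROZ, encoding protein Z, the cofactor of the factor X inhibitor SERPINA10, had 9.09, 9.05 and 8.87 in PBLD cells, against 9.49, 9.42 and 9.25 in control cells. Every PBLD array was again below every control array, and the log2 change was -0.38 (SE 0.08, limma adjusted p = 0.00526).

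Prothrombin and protein S fell less. F2, the prothrombin gene, had 9.49, 9.65 and 9.52 in PBLD cells, against 9.75, 10.15 and 9.83 in control cells. The groups did not overlap, and control replicate 2 was the highest array. The change was -0.36 (SE 0.09, limma adjusted p = 0.0224). Without control replicate 2 it was -0.24 and no longer passed (adjusted p = 0.116), nor did it pass without PBLD replicate 1 (adjusted p = 0.12) or PBLD replicate 3 (adjusted p = 0.0572). PROS1, encoding protein S, the cofactor with which activated protein C destroys factors V and VIII, had 10.86, 10.80 and 10.91 in PBLD cells, against 11.25, 11.15 and 11.07 in control cells. Its groups were also separate, with a change of -0.30 (SE 0.07, limma adjusted p = 0.0106) that did not pass without control replicate 1 (adjusted p = 0.0722). PROS1 has a closely similar pseudogene, and cross-hybridisation to it was not tested. PROC, the protein C gene, did not pass: it had 11.25, 11.24 and 10.95 in PBLD cells and 11.36, 11.25 and 11.26 in control cells. PBLD replicates 1 and 2 nearly touched the control arrays, and the interval of the change ran from -0.31 to 0.02 (adjusted p = 0.461). With cyclic loess PROC passed (adjusted p = 0.048). F9, the gene altered in haemophilia B, was at 7.78, 8.06 and 8.04 in PBLD cells and 7.88, 7.93 and 7.84 in control cells. None of these values passed the background limit, so F9 gives only an upper bound in both groups.

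F7, F10 and PROZ are neighbours on chromosome 13, in that order in the RefSeq annotation of GRCh38.p14, and the 3 fell together. The genes on either side did not pass the test. MCF2L, before F7, changed by -0.19 (adjusted p = 0.166) and had its PBLD arrays below its control arrays. After PROZ, PCID2 changed by 0.04 (adjusted p = 0.942) and CUL4A by -0.06 (adjusted p = 0.828), both with overlapping groups, and ATP11A, on the outer side of MCF2L, was at background on all arrays. Whether the 3 factor genes differ from these flanking genes in their change was not tested.

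**Figure D3:**
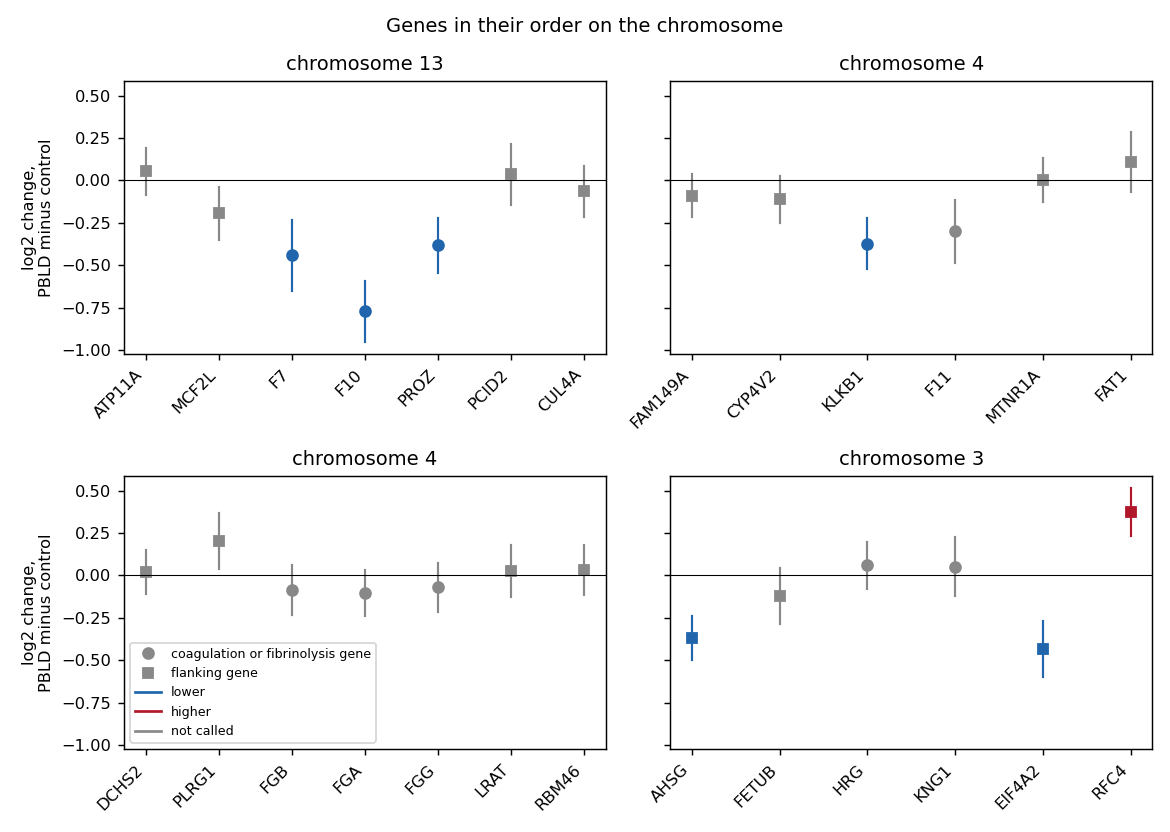
Log2 change, PBLD minus control, with 95% confidence intervals (n = 3 arrays per group) for clotting genes (circles) and flanking genes (squares) in chromosome order without distances. F7, F10 and PROZ lie at -0.44, -0.77 and -0.38, between MCF2L at -0.19 and PCID2 at 0.04, while the fibrinogen genes lie between -0.10 and -0.07.

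The starts of these 3 genes, and of SERPIND1, are shown as examples picked from the lower genes. Each holds the letters CAAAGT, the core of the element bound by HNF4A, the nuclear receptor known for driving clotting genes in liver. Windows of 250 bases before to 50 bases after the annotated start came from RefSeq (GRCh38.p14) and matched 35 of the 42 genes. Both strands were searched for CAAAGT and for the longer CAAAGTNCA, which contains it. The 35 genes had 42 windows in total, and a gene was counted if any of its windows held the letters. The share given for all windows counts single windows, so the units differ and the 2 shares cannot be compared directly. CAAAGT was found in 9 of the 35 genes, and in 11.9% of all 35116 windows of the same length. Of the 11 lower genes with a window, 5 held it: F7, F10, PROZ, SERPIND1 and KLKB1. The others that held it, F8, F9, PLAU and SERPINA10, were not called, and their starts are not shown, nor is that of KLKB1. The longer CAAAGTNCA was found in 4 of the 35 genes (F10, PROZ, SERPIND1 and F9) and in 1.1% of all windows. Other letter strings known from liver promoters were also present. GTTAAT was found in 8 of the 35 genes, in 2 of the 11 lower ones and in 6.88% of all windows. TTGCNNAA was found in 9 of the 35, in 1 of the 11 and in 10.5% of all windows. TATAAA was found in 4 of the 35, in 0 of the 11 and in 11.5% of all windows. No string was tested for being particular to the lower genes. A match describes letters and not a binding site. HNF4A has no value here, so its level was not examined. Each sequence below runs from 100 bases before to 20 bases after the start on the + strand of GRCh38.p14, at chr13:113105691-113105810 for F7, chr13:113122699-113122818 for F10, chr13:113158548-113158667 for PROZ and chr22:20774013-20774132 for SERPIND1. Capitals mark CAAAGT or its reverse complement, ACTTTG.
F7: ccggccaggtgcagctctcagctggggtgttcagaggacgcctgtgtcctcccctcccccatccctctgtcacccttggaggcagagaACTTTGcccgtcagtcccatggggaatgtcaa
F10: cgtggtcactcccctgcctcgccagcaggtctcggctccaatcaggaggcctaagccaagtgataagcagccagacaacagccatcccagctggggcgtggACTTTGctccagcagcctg
PROZ: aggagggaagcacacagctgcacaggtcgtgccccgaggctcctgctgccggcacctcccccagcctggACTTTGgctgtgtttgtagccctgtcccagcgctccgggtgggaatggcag
SERPIND1: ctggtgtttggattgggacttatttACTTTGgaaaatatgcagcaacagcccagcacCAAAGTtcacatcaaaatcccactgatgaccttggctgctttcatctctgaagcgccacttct
Counted from the start, with negative positions before it, the capitals begin at -12 in F7 and at -31 in PROZ. In F10 the longer match, TGGACTTTG, begins at -2 and spans the start. SERPIND1 holds ACTTTG at -75 and CAAAGT at -43.

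The vitamin K cycle did not move one way. VKORC1, the epoxide reductase that warfarin blocks, had 13.65, 13.66 and 13.37 in PBLD cells, against 13.96, 13.88 and 13.86 in control cells. The groups did not overlap, and PBLD replicate 3 was the lowest array. Its change was -0.34 (SE 0.08, limma adjusted p = 0.0131), and another VKORC1 probe changed by -0.28 (adjusted p = 0.0342). The VKORC1 call was lost without PBLD replicate 3 (adjusted p = 0.0535) or control replicate 1 (adjusted p = 0.0739). VKORC1L1, its paralogue with the same reaction, had 9.79, 9.89 and 9.76 in PBLD cells, against 9.59, 9.66 and 9.47 in control cells. Here the PBLD arrays were the higher ones, by 0.24 (SE 0.07, limma adjusted p = 0.0444). This call was lost when PBLD replicate 1, PBLD replicate 2, control replicate 1 or control replicate 3 was left out, with adjusted p from 0.104 to 0.184. Taken within each array, VKORC1L1 minus VKORC1 differed by 0.58 between PBLD and control, with no overlap of the groups. An exact two-sided permutation test gave p = 0.1, which is the smallest value that 3 arrays against 3 allow, and 0.1 after adjustment over the 4 such differences examined. GGCX, the carboxylase, had 9.51, 9.62 and 9.49 in PBLD cells and 9.34, 9.42 and 9.22 in control cells. Its PBLD arrays were also the higher ones, but the change of 0.22 (interval 0.07 to 0.36) did not pass (adjusted p = 0.0849).

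Among the starters and cofactors, 1 of 5 fell. F5, the cofactor on which factor X makes thrombin, had 10.88, 10.92 and 10.94 in PBLD cells, against 11.21, 11.25 and 11.09 in control cells. The groups were separate and the change was -0.27 (SE 0.06, limma adjusted p = 0.0164). The call was lost without PBLD replicate 1, control replicate 1 or control replicate 2, with adjusted p from 0.0731 to 0.0949. F3, encoding tissue factor, lay between 8.19 and 8.28 in PBLD cells and between 8.16 and 8.21 in control cells, just above background, with a change of 0.05 (interval -0.08 to 0.18). F8, encoding the cofactor missing in haemophilia A, was above the limit on no array. VWF, the platelet tether and carrier of factor VIII, passed the limit on 1 PBLD and 3 control arrays, with 8.003, 8.05 and 8.21 in PBLD cells and 8.38, 8.33 and 8.19 in control cells. Its groups overlapped and its change of -0.21 did not pass (adjusted p = 0.114), though it did without PBLD replicate 3 (adjusted p = 0.0414). ADAMTS13, the protease that trims VWF, passed the limit on 0 PBLD and 2 control arrays, so its level in PBLD cells is only an upper bound.

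In the contact system, 2 of 4 genes fell. F12, whose product starts the contact route on negatively charged surfaces, had 9.81, 9.78 and 9.46 in PBLD cells, against 10.24, 10.26 and 10.07 in control cells. PBLD replicate 3 was the lowest array and the groups did not overlap. The change was -0.50 (SE 0.09, limma adjusted p = 0.00179). KLKB1, encoding plasma prekallikrein, had 7.97, 8.15 and 8.04 in PBLD cells, against 8.51, 8.46 and 8.31 in control cells. Only 1 PBLD array was above the background limit, while all control arrays were, so the fitted change of -0.37 (SE 0.07, limma adjusted p = 0.00359) ends at background in PBLD cells and its size is uncertain: with normexp and quantile normalization it was -0.76. F11, the next gene along chromosome 4 from KLKB1, had 9.04, 9.37 and 9.09 in PBLD cells and 9.46, 9.60 and 9.34 in control cells. PBLD replicate 2 overlapped the control arrays, and the change of -0.30 (interval -0.49 to -0.11) missed the threshold at adjusted p = 0.0566. It passed when PBLD replicate 2 was left out (-0.40, adjusted p = 0.00531) or control replicate 3 was (-0.36, adjusted p = 0.0305), and under 4 other settings of scaling or filter. It did not pass when any other array was left out (adjusted p from 0.142 to 0.284). Nor did it pass with averaged probes (adjusted p = 0.0899), the intensity trend or normexp. Another F11 probe, ILMN_1807101, was above the limit on every array and changed by -0.13 (adjusted p = 0.4). KNG1, encoding the kininogen that carries prekallikrein and factor XI, overlapped between the groups, with a change of 0.05 (interval -0.12 to 0.22).

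Fibrin's own genes did not pass with their brightest probes. FGA, FGB and FGG encode the α, β and γ chains of fibrinogen, and lie side by side on chromosome 4. FGA had 14.46, 14.60 and 14.46 in PBLD cells and 14.62, 14.60 and 14.60 in control cells, a change of -0.10 (interval -0.24 to 0.03). FGB had 13.62, 13.75 and 13.54 in PBLD cells and 13.75, 13.77 and 13.65 in control cells, a change of -0.08 (interval -0.23 to 0.06). FGG had 14.10, 14.22 and 14.15 in PBLD cells and 14.30, 14.28 and 14.11 in control cells, a change of -0.07 (interval -0.22 to 0.07). PBLD replicate 2 sat just under the FGA control arrays, and the FGB and FGG groups overlapped. The dimmer probes of FGA and FGG did not give the same answer. For FGA, the 3 other probes above background fell by 0.23 to 0.27 on the log2 scale, with limma adjusted p from 0.0339 to 0.0413. One of them, ILMN_2381945, is annotated to the same short α chain transcript as the brightest probe, so the probes do not part by transcript. For FGG, the probe annotated to the transcript of the γ′ chain, a splice form whose tail binds thrombin, had 11.30, 11.24 and 11.26 in PBLD cells, against 11.62, 11.58 and 11.49 in control cells. Its groups did not overlap, and the change was -0.30 (SE 0.06, limma adjusted p = 0.00725). Within arrays, the γ′ probe minus the brightest FGG probe differed by -0.23 between PBLD and control (exact two-sided permutation p = 0.1, the smallest possible). Both FGB probes were uncalled, the dimmer with a change of -0.07. Counting any probe, 15 of the 42 genes had a lower probe.

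The remaining fibrin genes were uncalled. FGL1, a fibrinogen-like protein secreted by liver, changed by -0.04 with its brightest probe (interval -0.20 to 0.13). Its other probes had changes above 0, from 0.04 to 0.20, and none passed (limma adjusted p from 0.152 to 0.927). The largest were ILMN_1682828, at 0.19 with no overlap of the groups, and ILMN_2326197, at 0.20 with overlap. ILMN_1731222 was above the limit on no array. F13B, the carrier subunit of the crosslinking factor XIII, changed by 0.10 (interval -0.04 to 0.25). F13A1, the catalytic subunit, was above the limit on no array.

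TFPI had the largest decrease of the 42 genes. Its product blocks factor X and the tissue factor-factor VII complex, the step at which clotting begins. The brightest probe, ILMN_1707124, had 13.49, 13.56 and 13.47 in PBLD cells, against 14.50, 14.51 and 14.34 in control cells. The arrays of a group lay close together and the groups far apart, with a change of -0.94 (SE 0.07, limma adjusted p = 2.54e-07). A probe annotated to the same transcript, ILMN_1662619, had 13.29, 13.28 and 13.17 in PBLD cells, against 14.78, 14.59 and 14.59 in control cells. Its change was -1.40 (SE 0.07, limma adjusted p = 4.29e-09), a 2.65-fold decrease. The remaining probe, ILMN_1701032, is annotated to TFPIβ, the splice form that is held on the cell surface by a lipid anchor and lacks the basic tail of TFPIα. It had 10.98, 10.72 and 10.61 in PBLD cells, against 13.03, 13.13 and 13.19 in control cells. This was the steepest drop of any probe of the 42 genes, -2.34 (SE 0.08, limma adjusted p = 7.62e-11), or 5.07-fold.

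The size of the TFPI decrease thus depended on the probe. Within each array, the TFPIβ probe minus ILMN_1707124 differed by -1.40 between PBLD and control, and the TFPIβ probe minus ILMN_1662619 differed by -0.94. The groups overlapped in neither difference, and each gave p = 0.1 in the exact two-sided permutation test, the smallest possible with 3 arrays against 3. The probes ILMN_1707124 and ILMN_1662619 carry the same transcript annotation and their intervals, -1.08 to -0.80 and -1.55 to -1.26, did not meet, so probes for 1 transcript also disagreed in size. The highest value of any probe on any array was 16.04, above all values of the 3 TFPI probes. Whether the signal of bright probes was compressed was not tested. CALCRL and GULP1, the named genes on either side of TFPI on chromosome 2, were above the limit on no array.

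**Figure D4:**
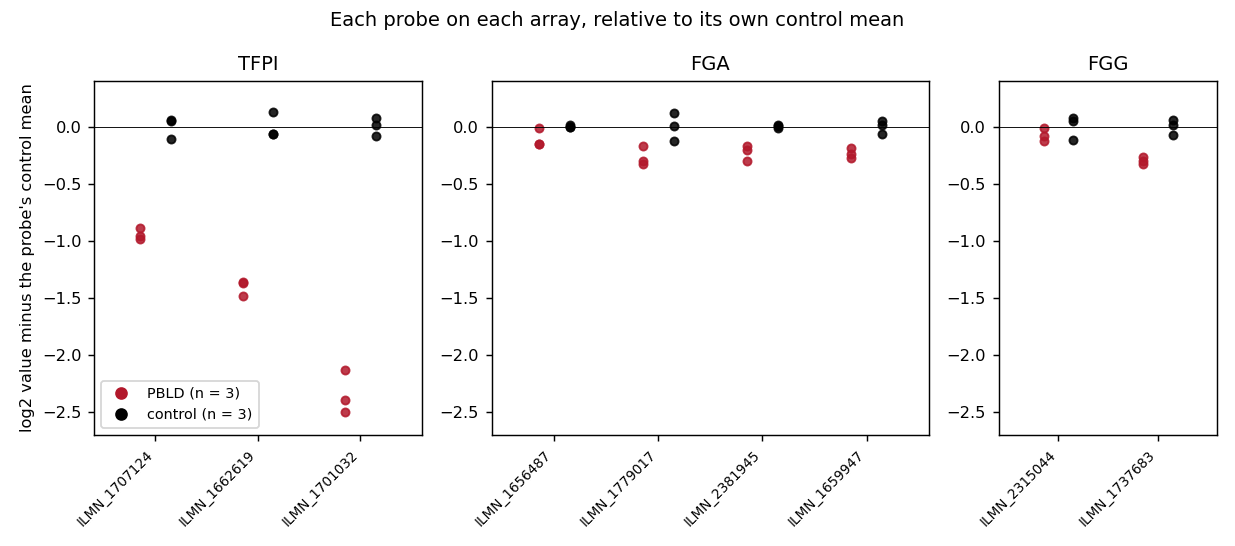
Log2 value of each probe above background for TFPI, FGA and FGG on each array, less that probe's mean over the control arrays (3 PBLD and 3 control points per probe). The TFPI probes change by -0.94, -1.40 and -2.34, while no FGA or FGG probe goes beyond -0.30.

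Among the 9 other inhibitors, 2 fell. SERPIND1, heparin cofactor II, a thrombin inhibitor, had 12.32, 12.52 and 12.26 in PBLD cells, against 13.01, 12.79 and 12.59 in control cells. PBLD replicate 2 came closest to the control arrays without overlap, and the change was -0.43 (SE 0.09, limma adjusted p = 0.00911). It missed the threshold without PBLD replicate 1 (adjusted p = 0.0576) or control replicate 1 (adjusted p = 0.0593). A2M, the broad protease trap α2-macroglobulin, had 13.40, 13.55 and 13.53 in PBLD cells, against 13.65, 13.77 and 13.89 in control cells. Its change was -0.28 (SE 0.07, limma adjusted p = 0.0314), again without overlap. This call was lost without PBLD replicate 1, control replicate 2 or control replicate 3, with adjusted p from 0.105 to 0.17. SERPINC1, antithrombin, the main inhibitor of thrombin and factor X, did not pass: it had 12.74, 12.71 and 12.58 in PBLD cells and 12.73, 12.65 and 12.55 in control cells. The arrays were interleaved, and the interval of the change ran from -0.12 to 0.18. SERPINA5, the protein C inhibitor, and SERPINA10, the protein Z-dependent inhibitor, each changed by -0.10 without passing, with PBLD arrays just below the control arrays. SERPINE2, protease nexin 1, and PROCR, the protein C receptor, changed by 0.10 and 0.08 with overlapping groups. TFPI2, a relative of TFPI, and THBD, the thrombomodulin that turns thrombin toward protein C, were above the limit on no array.

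Of the 7 fibrinolysis genes, SERPINF2 alone passed. SERPINF2, α2-antiplasmin, the fast inhibitor of plasmin, had 11.96, 12.02 and 11.75 in PBLD cells, against 12.52, 12.37 and 12.33 in control cells. The groups were apart by more than the spread within either, and the change was -0.49 (SE 0.08, limma adjusted p = 0.000725). PLG, plasminogen, had 8.37, 8.28 and 8.22 in PBLD cells and 8.06, 8.10 and 8.07 in control cells. Every PBLD array was above every control array, but all values were near background and the change of 0.21 (interval 0.08 to 0.35) did not pass (adjusted p = 0.063). It passed without PBLD replicate 3 (0.25, adjusted p = 0.049), with cyclic loess (adjusted p = 0.0305) and with quantile normalization (adjusted p = 0.0317). PLG shares long stretches with the apolipoprotein(a) gene and plasminogen-like genes, and what the probe also binds was not tested. CPB2, the carboxypeptidase that shields fibrin from plasmin, changed by -0.06 (interval -0.22 to 0.10). PLAT, tissue plasminogen activator, changed by -0.04 (interval -0.21 to 0.13). PLAUR, the urokinase receptor, changed by 0.07 with its brightest probe, which lay near background, between 8.18 and 8.38. Its probe ILMN_2408543, above the limit on 2 PBLD arrays and 1 control array, changed by 0.20 (limma adjusted p = 0.166). ILMN_1691508 was above the limit on no array. Neither of these dimmer probes passed, though in each the PBLD arrays lay above the control arrays. PLAU, urokinase, and HRG, the plasminogen-binding histidine-rich glycoprotein, were above the limit on 1 array each.

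Genes outside the 42 that work with them were read from a list of 34, of which 27 were measured. None rose and 4 fell, with a median change of -0.02. Among all named genes 4.2% fell and 5.81% rose, and among those above the limit 7.72% fell and 10.6% rose. Of 4 genes for proteins that hold plasminogen on the cell surface, 2 fell, ANXA2 and S100A10, which form a complex. ANXA2 had 12.23, 12.21 and 12.10 in PBLD cells, against 12.83, 12.88 and 12.73 in control cells, a change of -0.63 (SE 0.07, limma adjusted p = 1.69e-05). S100A10 had 11.44, 11.54 and 11.31 in PBLD cells, against 12.24, 12.28 and 11.95 in control cells, a change of -0.73 (SE 0.09, limma adjusted p = 5.84e-05). Neither overlapped between the groups. The other genes of that list did not pass: ENO1 changed by -0.20 (adjusted p = 0.126) and PLGRKT by 0.23 (adjusted p = 0.203). The other genes that fell were the protease inhibitors SERPINI1, at -0.46 (adjusted p = 0.000346), and SERPINA1, α1-antitrypsin, at -0.31 (adjusted p = 0.00867). SERPINA1 is also among the hepatocyte markers above. LMAN1 and MCFD2, which form the receptor that carries factors V and VIII out of the endoplasmic reticulum, changed by -0.08 and -0.02 and did not pass. Of the liver transcription factors CEBPA, CEBPB, FOXA1, FOXA2 and ONECUT1, 0 of 5 passed in limma, and at an unadjusted p of 0.05 only FOXA2 did, with a change of -0.20 (adjusted p = 0.197).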

How the data were processed

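Total RNA was hybridised to 6 Illumina bead arrays, 3 per group. The deposited values are log2 intensities with a median of 8 on every array, processed by the authors with BeadStudio, per the submitters' processing notes; the sources used here do not give the background and scaling steps. A further table held 12 per-sample columns that match no label, and was not used. The platform annotation gave 1 symbol to 30113 probes, several to 8 and none to 17202; Entrez identifiers changed 0 symbols.

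The deposited log2 values were fitted with limma 3.58.1 (R 4.3.3) over all probes, with empirical Bayes and Benjamini-Hochberg adjustment at 0.05, on code tested on simulated data. The probe with the highest mean stood for a gene. All 42 genes are named; values per array are given for called genes and for F2, F7, F9, FGA, FGB, FGG, PLG, SERPINC1, PROC, VKORC1 and GGCX. The members and gene lists were chosen with earlier results of these data known. Tables, promoter searches and figures used Python 3.11.15 and matplotlib 3.10.9. Alternatives were other scalings, normexp on unlogged values, a filter on dim probes, averaged probes, an intensity trend with robust fitting, a replicate block, a stricter threshold and each array left out.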

Additional observations from a re-analysis of the deposited data

How the results depend on the processing

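The count of 13 lower genes was between 10 and 15 with 75th-percentile scaling, cyclic loess, quantile normalization, dim probes removed, probes averaged and an intensity trend with robust fitting. It was 6 with normexp and quantile normalization, 8 at an adjusted p of 0.01, and 8 to 14 with 1 array left out. The single higher gene became 2 with cyclic loess or quantile normalization, 0 with the intensity trend, with normexp or at 0.01, and 0 to 2 with 1 array left out. Whether equal replicate numbers pair the samples could not be decided, because all correlations between PBLD and control arrays were weak. They were 0.04, 0.14 and 0.19 for same-number arrays and -0.19 to 0.07 for different-number arrays. The highest, 0.14 and 0.19, were thus those of same-number arrays. With a replicate block, 14 genes were lower and 3 higher: F11 (adjusted p = 0.00451), GGCX (0.0343) and PLG (0.0445) gained a call. Other gains, in at least 1 setting, were PROC and VWF. Of the 14 called genes, F10, PROZ, F12, KLKB1, TFPI and SERPINF2 kept their call in all 14 alternatives at the 0.05 threshold, and the other 8 lost it in at least 1, all 8 of them with normexp. No called gene changed sign. TFPI ranged from -1.56 to -0.91 and KLKB1, near background, from -0.76 to -0.33. The TFPI value of -1.56 is that of its probes averaged, and the KLKB1 value of -0.76 that with normexp and quantile normalization. Apart from the averaging of the TFPI probes, the cause of these shifts was not tested. The median log2 change of all genes lay between 0.001 and 0.024 in every setting, against 0.009 in the main fit. The highest was that of the 10880 genes left after dim probes were removed. The deposited arrays already shared a median of 8, so a median change near 0 says little. Genes near the background limit give bounds, not changes.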

Other observations

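The cluster of serpin genes on chromosome 14 that holds SERPINA10 and SERPINA5 contained larger decreases than either. SERPINA11, another member of the family, had 11.40, 11.35 and 11.13 in PBLD cells, against 12.52, 12.45 and 12.20 in control cells, a 2.14-fold decrease (limma adjusted p = 8.94e-07). SERPINA3, the acute-phase inhibitor α1-antichymotrypsin, had 12.70, 12.84 and 12.69 in PBLD cells, against 13.64, 13.72 and 13.67 in control cells, a 1.91-fold decrease (limma adjusted p = 2.07e-07). SERPINA6, the cortisol carrier, changed by -0.38 (limma adjusted p = 0.0024). SERPINA4, or kallistatin, changed by 0.11 and did not pass. These genes were chosen as neighbours of the 2 clotting inhibitors.

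On chromosome 3, the genes around HRG and KNG1 moved in both directions. AHSG, a plasma glycoprotein of liver, changed by -0.37 (limma adjusted p = 0.00132) and EIF4A2, a translation initiation helicase, by -0.43 (limma adjusted p = 0.00213). RFC4, a subunit of the replication clamp loader, changed by 0.37 (limma adjusted p = 0.0019). HRG and KNG1, which lie between them, did not pass.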
